A study of Mus musculus with 6 samples.

Results

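The genes described here encode 10 growth factors that macrophages are known to make: *Vegfa*, *Pdgfa*, *Pdgfb*, *Pdgfc*, *Igf1*, *Hbegf*, *Fgf2*, *Csf1*, *Hgf* and *Gas6*. They were taken by symbol from the deposited count table, and all 10 were found among its 55453 genes. The libraries were made from bone marrow-derived macrophages (BMDM) of C57BL/6 mice. In 3 libraries, labelled PP2A-KO, the cells came from LysM cre PP2Ac fl/fl mice, in which the catalytic subunit gene *Ppp2ca* of protein phosphatase 2A is floxed and cre is driven by the lysozyme 2 promoter of myeloid cells. The other 3 libraries, labelled WT, came from wild-type mice, which the study obtained separately. Cre itself and the loss of *Ppp2ca* therefore cannot be told apart. The study used young adult mice of both sexes, and the labels give no age or sex for a culture. They also name no treatment. The study, however, describes its RNA-Seq as made from BMDM of both genotypes treated with cGAMP, the second messenger that activates STING. The differences given here may therefore be those of stimulated cells. BMDM were grown in recombinant M-CSF or in medium conditioned by L929 fibroblasts, so the protein product of *Csf1* was supplied to both groups. The study gives biological triplicates as its rule for work on cells. Neither it nor the labels say whether the libraries of a group came from separate mice. The p-values therefore measure the spread between these libraries, which may not be that between mice.

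Macrophages repair and remodel tissue partly through secreted growth factors. Vascular endothelial growth factor A (VEGF-A) drives blood vessel growth, platelet-derived growth factors (PDGF) recruit pericytes and fibroblasts, and fibroblast growth factor 2 (FGF2), hepatocyte growth factor (HGF), insulin-like growth factor 1 (IGF-1) and heparin-binding EGF-like growth factor (HB-EGF) act on mesenchymal and epithelial cells. M-CSF, encoded by *Csf1*, keeps macrophages alive, and Gas6 bridges dying cells to the TAM receptors Tyro3, Axl and Mertk. These ligands signal through receptor tyrosine kinases.

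Library totals ran from 35257156 to 47390899 counts, and 13680 genes passed the filter on low counts, all 10 growth factor genes among them. *Ppp2ca* had 33 to 47 reads per PP2A-KO library and 8279 to 10654 per WT library. The macrophage genes *Adgre1*, *Cd68*, *Itgam* and *Csf1r* had at least 3599 reads in every library. *Lyz2* had only 260 to 421. Its reads can be divided with its paralog *Lyz1*, but the cause of the low count was not tested. Markers of T and NK cells summed to at most 0.141 CPM in any library (CPM being counts scaled to a common library size, with TMM factors). Of the 9 macrophage markers listed and tested, 3 were higher in PP2A-KO (*Fcgr1*, *Spi1* and *Mertk*) and 0 lower. The 9 summed to 9015 to 9132 CPM in PP2A-KO and 7600 to 8124.5 CPM in WT libraries. Fibroblast markers were present and also differed between the groups. The 10 on the list summed to 30.9 to 45.1 CPM in PP2A-KO and 104 to 144 CPM in WT libraries. Of the 9 that could be tested, 8 were lower in PP2A-KO. Over all genes tested, 18.1% were higher and 19.0% lower (edgeR adjusted p under 0.05).

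In PP2A-KO BMDM, *Csf1*, *Pdgfc*, *Pdgfb*, *Vegfa* and *Gas6* rose and *Hgf* fell, at an adjusted p under 0.05 from edgeR's quasi-likelihood test. *Pdgfc* and *Csf1* were about doubled (2.06-fold and 2.02-fold), *Pdgfb* was 1.79-fold, *Vegfa* 1.46-fold and *Gas6* 1.35-fold higher. *Hgf* was 1.45-fold lower. *Fgf2* was 4.89-fold lower by its counts, but it passed the filter on low counts through its WT libraries only, where it was high, so its adjusted p supports nothing further. *Pdgfa*, *Igf1* and *Hbegf* did not pass the test. Of the 9 genes that passed the filter in both groups, 5 were called higher and 1 lower. With *Fgf2* the calls were 7 of 10, where 37.1% of all genes tested were called, 18.1% higher and 19.0% lower. With library totals in place of TMM scaling factors, which shifted the median over all genes to -0.24 (log2), 1503 genes were higher and 6125 lower (19.7% of calls higher) instead of 2470 and 2604 (48.7%). The directions of these 7 genes held under that scaling too. At the threshold in the study's legend (log2 fold change over 1, FDR under 0.01), *Csf1* and *Pdgfc* were upregulated, where 3.36% of all genes were. Of the 10, *Fgf2* lay past the mirrored threshold, where 2.99% did, with the limit given above. The median absolute log2 fold change was 0.54 over the 10 genes and 0.23 over all genes tested. The values of the 3 PP2A-KO libraries lay wholly outside those of the 3 WT libraries for the 7 called genes, as they did for 50.9% of all genes tested. For 5 of the 7 they lay above WT (24.0% of all genes) and for 2 below (26.8%).

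**Figure D1:**
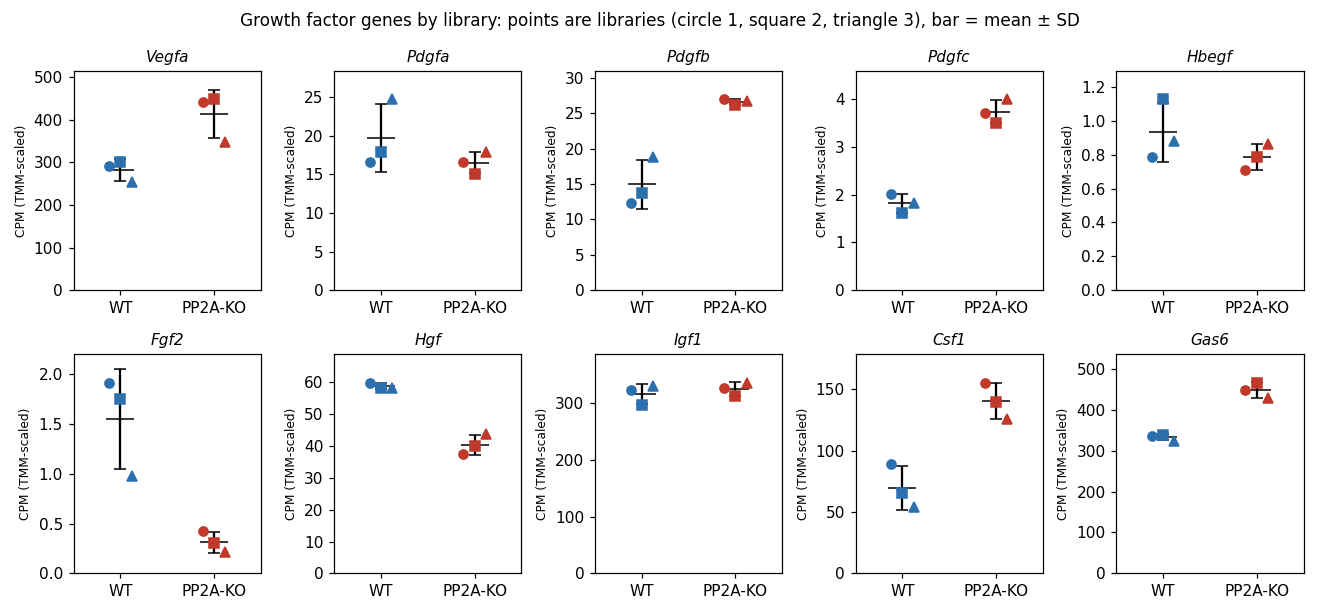
Level of each growth factor gene in every library, in TMM-scaled CPM (vertical axes start at 0), for WT (blue) and PP2A-KO (red) BMDM. Points are libraries and bars are mean ± SD (n = 3). The libraries of the groups do not overlap for *Vegfa*, *Pdgfb*, *Pdgfc*, *Fgf2*, *Hgf*, *Csf1* and *Gas6*, and they overlap for *Pdgfa*, *Hbegf* and *Igf1*.

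**Figure D2:**
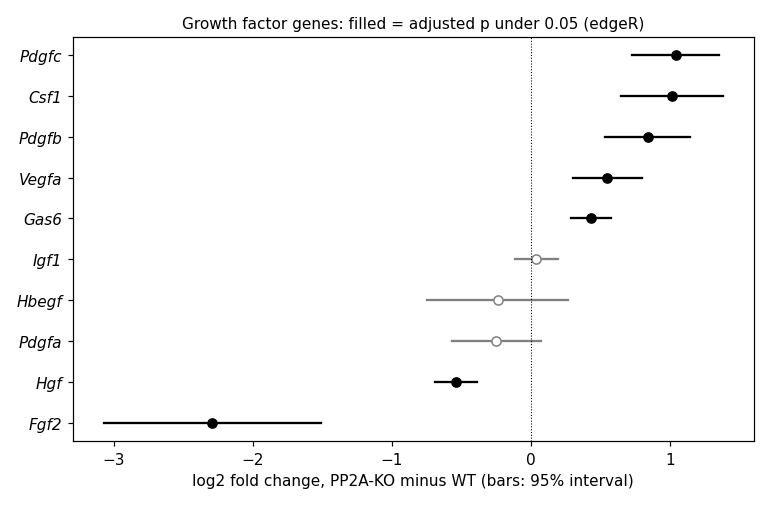
Log2 fold change (PP2A-KO minus WT) of the 10 growth factor genes with its 95% interval from edgeR. Filled points have an adjusted p under 0.05. *Pdgfc* (1.04) and *Csf1* (1.01) are the farthest to the right and *Fgf2* (-2.29) the farthest to the left, with the widest interval (-3.07 to -1.51).

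The 10 mRNAs spanned a wide range of abundance. Divided by the length of a gene's exons, the level in WT BMDM was 131 ± 2.85 CPM per kb for *Gas6* (SD, n = 3), above 97.8% of the genes with a length. It was 65.7 ± 5.87 for *Vegfa*, 32.0 ± 1.76 for *Igf1*, 13.2 ± 3.41 for *Csf1* and 8.18 ± 0.134 for *Hgf*. *Pdgfa* followed with 6.32 ± 1.40 and *Pdgfb* with 3.59 ± 0.825 CPM per kb. *Pdgfc* (0.358 ± 0.0397), *Fgf2* (0.228 ± 0.0735) and *Hbegf* (0.193 ± 0.0364) were the least abundant. Between neighbours in this order, the WT libraries overlapped only for *Fgf2* and *Hbegf*. The order depended on the length used: with the longest transcript *Hgf* (16.9) stood above *Csf1* (16.7), and *Hbegf* (0.322) above *Fgf2* (0.259). In PP2A-KO the upper part of the order was the same, from *Gas6* (176 ± 7.34 CPM per kb) through *Vegfa* (96.2 ± 13.2) and *Igf1* (32.9 ± 1.22) to *Csf1* (26.6 ± 2.78). *Pdgfb* (6.40 ± 0.0912) then stood above *Hgf* (5.62 ± 0.437) and *Pdgfa* (5.30 ± 0.441), of which *Hgf* and *Pdgfa* overlapped. *Fgf2*, at 0.0463 ± 0.0154, was last.

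VEGF-A, the main angiogenic factor of the group, is encoded by *Vegfa* on the reverse strand of chromosome 17 (46016993 to 46032369, GRCm38), with 13 annotated transcripts. Its raw counts were 18759, 14767 and 14480 in PP2A-KO replicates 1, 2 and 3, and 14507, 13049 and 10607 in WT. Scaled, these were 442, 447 and 347 CPM against 292, 300.04 and 253 CPM. The third PP2A-KO library was the closest to WT but still above each WT library. On the log2 scale the difference was 0.55 (0.11 standard error, SE, edgeR adjusted p = 0.00400). Gene counts do not separate the isoforms of VEGF-A, which differ in heparin binding.

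Among the 9 other genes listed for the VEGF family, 8 could be tested, 4 were higher (18.1% of all genes tested were) and 0 lower, and their median change was 0.56 (log2) against -0.02 over all genes tested. All 4 were receptors or coreceptors. The count of lower genes was also 0 at an unadjusted edgeR p under 0.05, with DESeq2 and with limma-voom. Blocking on replicate numbers raised the higher genes to 6, adding *Nrp2* and *Vegfb*. Over all 13680 genes tested, the same block raised the higher genes from 2470 to 3343. *Flt4*, which encodes VEGF receptor 3, had 874, 505 and 453 reads in PP2A-KO and 239, 107 and 59 in WT, a log2 fold change of 2.40 (SE 0.36, edgeR adjusted p = 9.70e-04). *Flt1* (VEGF receptor 1) and *Kdr* (VEGF receptor 2) rose by 1.35 and 1.09 on the log2 scale, and the coreceptor *Nrp1* by 0.79. *Kdr* had 6025 to 9741 reads in PP2A-KO and 3277 to 6210 in WT. *Cdh5*, another endothelial marker, was higher in PP2A-KO and *Vwf* was lower, whereas *Tek* and *Emcn* had at most 6 reads in any library. The 6 endothelial markers together summed to 241 to 312 CPM in PP2A-KO and 164 to 227 in WT. Most of that sum was *Kdr* itself. The 5 without it summed to 82.5, 58.4 and 67.8 CPM in PP2A-KO and 101.8, 87.5 and 102.1 CPM in WT. Most of this smaller sum was *Vwf*, with 69.2, 48.4 and 58.2 CPM in PP2A-KO and 95.6, 83.4 and 99.3 in WT. *Cdh5* went the other way, with 12.9, 9.51 and 9.11 CPM in PP2A-KO and 5.74, 3.63 and 2.48 in WT. The part of these markers in the receptor values was not tested. The ligands *Vegfb*, *Vegfc* and *Pgf* did not pass the test in the fit for genotype alone. *Vegfb* had a log2 fold change of 0.15, with an adjusted p of 0.295 from edgeR, or 0.0285 once replicate numbers were blocked.

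The PDGF chains form dimers that bind the receptor kinases PDGFRα and PDGFRβ. *Pdgfb* (chromosome 15, 79995874 to 80014977) had 1143, 865 and 1115 reads in PP2A-KO and 612, 594 and 789 in WT. Scaled, it was nearly level in PP2A-KO, with 26.9, 26.2 and 26.7 CPM, and more spread in WT, with 12.3, 13.7 and 18.8 CPM. PP2A-KO minus WT came to 0.84 (log2, SE 0.14, edgeR adjusted p = 0.00133).

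*Pdgfc* (chromosome 3, 81036416 to 81214040) encodes a chain that is secreted in latent form and must be cleaved to bind its receptor. It had 158, 116 and 167 reads in PP2A-KO and 100, 70 and 77 in WT, or 3.72, 3.51 and 4.002 against 2.01, 1.61 and 1.84 CPM. Every PP2A-KO library was above every WT library. The change was 1.04 on the log2 scale (SE 0.14, edgeR adjusted p = 5.02e-04).

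*Pdgfa* (chromosome 5, 138976014 to 138997370) did not pass the test. It had 706, 498 and 744 reads in PP2A-KO and 824, 776 and 1035 in WT, or 16.6, 15.1 and 17.8 against 16.6, 17.8 and 24.7 CPM. The groups overlapped, and the third WT library was apart from the rest. On the log2 scale the difference was -0.25 (95% interval -0.57 to 0.07, adjusted p = 0.199 from edgeR). Blocking on replicate numbers gave an adjusted p of 0.0306, with a log2 fold change of -0.24, and without WT replicate 3 the log2 fold change was -0.06. The antisense RNA *6330403L08Rik* covers 26.1% of the *Pdgfa* exon bases. It had 117 to 190 reads in PP2A-KO and 228 to 281 in WT, and no source used here states whether counting used strand.

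Within each library the balance of the chains separated the genotypes, and this measure needs no scaling between libraries. Reads per kb of *Pdgfb* over those of *Pdgfa* were 1.21, 1.30 and 1.12 in PP2A-KO and 0.557, 0.574 and 0.571 in WT. The means were 1.21 ± 0.0893 and 0.567 ± 0.00924 (SD, n = 3), so that the gap was many times the spread within either group. An exact two-sided permutation test gave p = 0.1, the smallest that 3 against 3 libraries allow (0.1 also after adjustment over the 2 ratios computed). The ratio was chosen after the values were seen.

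**Figure D3:**
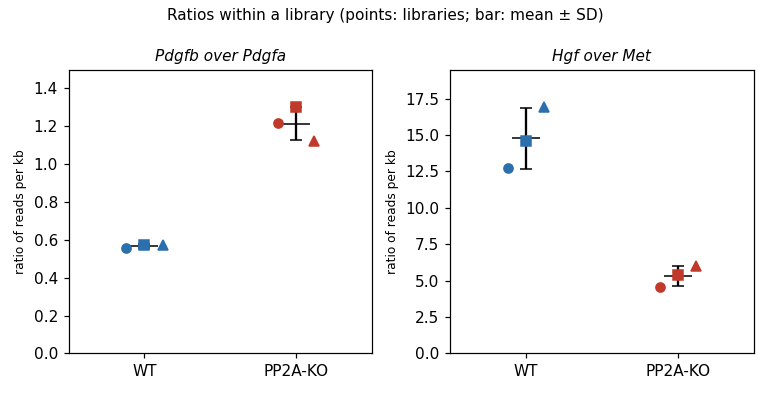
Ratios of reads per kb within each library, for *Pdgfb* over *Pdgfa* (left) and *Hgf* over *Met* (right), in WT (blue) and PP2A-KO (red) BMDM. Points are libraries and bars are mean ± SD (n = 3). The left ratio is near 0.567 in WT and 1.21 in PP2A-KO, and the right one is near 14.8 in WT and 5.33 in PP2A-KO.

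On the receptor side of the PDGF family both receptor kinase genes were lower in PP2A-KO, among 3 tested of 4 listed. Of all genes tested, 19.0% were lower. *Pdgfra* had 66, 31 and 23 reads in PP2A-KO and 156, 127 and 68 in WT, a log2 fold change of -1.33 (SE 0.36, edgeR adjusted p = 0.0167). Its adjusted p was 0.0576 without PP2A-KO replicate 2 and 0.0571 without WT replicate 2. *Pdgfrb* had 102, 59 and 69 against 228, 183 and 175 reads, a log2 fold change of -1.14 (SE 0.16, edgeR adjusted p = 5.96e-04). Both receptors mark fibroblasts and pericytes. The 8 fibroblast markers that are on no growth factor list summed to 41.2, 34.6 and 28.7 CPM in PP2A-KO and 127, 137 and 98.0 CPM in WT. Of these 8, 7 could be tested and 6 were lower in PP2A-KO, beside 19.0% of all genes tested. Both tested smooth muscle markers, *Acta2* and *Tagln*, were lower as well, and the list summed to 3.07 to 3.82 CPM in PP2A-KO and 11.02 to 14.2 CPM in WT. The part of these markers in the receptor decrease was not tested. In bulk RNA, fewer cells of a type and less RNA per cell cannot be told apart.

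*Fgf2* (forward strand of chromosome 3, 37348346 to 37410108) encodes a heparin-binding mitogen of fibroblasts and endothelial cells. It had 18, 10 and 9 reads in PP2A-KO and 95, 76 and 41 in WT, or 0.424, 0.303 and 0.216 against 1.91, 1.75 and 0.978 CPM. The third WT library was the lowest of its group, and the groups did not overlap. PP2A-KO minus WT came to -2.29 (log2, SE 0.35, edgeR adjusted p = 9.39e-04, given for a gene that passed the filter through WT only). *Nudt6*, a gene on the opposite strand, shares 9.44% of the *Fgf2* exon bases. It had 50 to 74 reads in PP2A-KO and 92 to 108 in WT (log2 fold change -0.38, adjusted p = 0.104 from edgeR).

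*Fgf7*, a keratinocyte mitogen typical of stromal cells, was lower too, with 18, 16 and 11 against 80, 57 and 32 reads and a log2 fold change of -1.67 (SE 0.34, edgeR adjusted p = 0.00471). *Fgfr1*, which encodes an FGF receptor, had a log2 fold change of -0.54 (adjusted p = 0.0455 from edgeR), but the groups overlapped. Its call was lost in 5 of the 6 fits that left out a library, with adjusted p-values up to 0.157. The heparan sulfate proteoglycan *Sdc4*, an FGF coreceptor, rose by 1.02 on the log2 scale (SE 0.10, edgeR adjusted p = 1.22e-04), from 231 ± 13.5 to 470 ± 59.7 CPM (SD, n = 3). The part of the fibroblast markers in the *Fgf2* and *Fgf7* values was not tested. In all, 6 of the 16 other FGF family genes could be tested, 1 was higher and 2 lower, beside 18.1% and 19.0% over all genes.

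**Figure D4:**
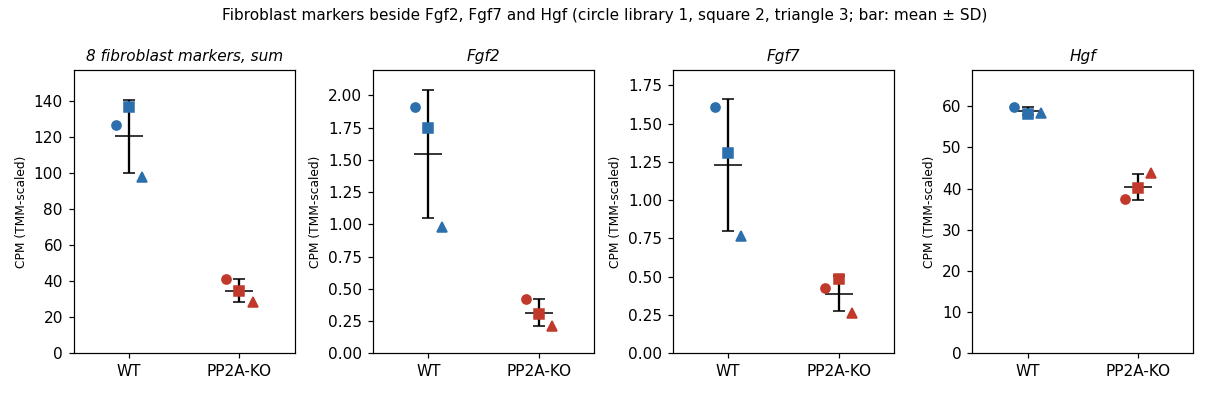
Summed level of 8 fibroblast markers beside *Fgf2*, *Fgf7* and *Hgf* in each library, in TMM-scaled CPM, for WT (blue) and PP2A-KO (red) BMDM. Points are libraries (circle 1, square 2, triangle 3) and bars are mean ± SD (n = 3). In each panel the 3 PP2A-KO libraries lie below the 3 WT libraries, and the part of the markers in the other values was not tested.

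HGF is a scatter factor and mitogen for epithelial cells that acts through the receptor Met. *Hgf* (chromosome 5, 16553495 to 16620152) had 1588, 1324 and 1823 reads in PP2A-KO and 2975, 2530 and 2443 in WT. Scaled, it was 37.4, 40.1 and 43.7 CPM against 59.9, 58.2 and 58.3 CPM. The WT libraries were almost level, and every PP2A-KO library was below them. The part of the fibroblast markers, whose values are given above, was not tested for *Hgf* either. The change was -0.54 on the log2 scale (SE 0.07, edgeR adjusted p = 3.85e-04).

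Its receptor moved the opposite way. *Met* had 370, 261 and 326 reads in PP2A-KO and 249, 185 and 154 in WT, a log2 fold change of 0.91 (SE 0.13, edgeR adjusted p = 5.81e-04). Reads per kb of *Hgf* over *Met* were 4.59, 5.42 and 5.98 in PP2A-KO and 12.8, 14.6 and 17.0 in WT, or 5.33 ± 0.699 against 14.8 ± 2.10 (SD, n = 3). The groups did not overlap, and the exact two-sided permutation test again gave its smallest possible p = 0.1. Every PP2A-KO library was below WT for *Hgf* and above WT for *Met*, so this separation was fixed in advance and adds nothing. This ratio, too, was chosen after the values were seen. Of the other HGF genes *Plat*, the tissue plasminogen activator, was lower (log2 fold change -1.18, standard error 0.22, adjusted p = 0.00303 from edgeR), among 6 tested of 9 listed. The share of lower genes over all genes tested was 19.0%.

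IGF-1 is an anabolic factor and a product of alternatively activated macrophages. *Igf1* (chromosome 10, 87858265 to 87937042) did not pass the test, with 13876, 10323 and 14053 reads in PP2A-KO and 16056, 12928 and 13855 in WT. Scaled, these were 327, 313 and 337 CPM against 323, 297 and 331 CPM, and the groups overlapped. On the log2 scale the difference was 0.04 (95% interval -0.12 to 0.19, adjusted p = 0.699 from edgeR). With TMM scaling, the interval excludes changes of the size seen in *Hgf* or *Gas6*. The sign of the *Igf1* difference turned with upper-quartile scaling (-0.03) and with library totals (-0.18). With library totals *Gas6* changed by 0.21 and *Hgf* by -0.76 (log2), so that exclusion is tied to the scaling.

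Of the 13 other IGF genes listed, 8 could be tested, 6 were lower (19.0% of all genes tested were) and 0 higher with edgeR. The count of higher genes was also 0 at an unadjusted p under 0.05, with DESeq2 and with limma-voom. Once replicate numbers were blocked, it was 1 (*Igfbp4*) beside 7 lower genes. That block gave 3343 higher and 3615 lower genes over all 13680 tested, instead of 2470 and 2604. *Igf1r*, the receptor of IGF-1, had 1528, 946 and 1324 reads in PP2A-KO and 2836, 2173 and 2106 in WT, a log2 fold change of -0.71 (SE 0.09, edgeR adjusted p = 4.61e-04). The binding proteins *Igfbp7*, *Igfbp6* and *Igfbp5*, which hold IGFs in the extracellular space, had log2 fold changes of -1.502, -1.45 and -1.06. *Igfbp6* passed the filter on low counts through WT only. *Igfbp5* was uneven within PP2A-KO, with 137, 245 and 88 reads, overlapped WT, and lost its call in 4 of the 6 fits without a library and under RLE scaling and DESeq2. These binding proteins are also made by stromal cells, and the part of the fibroblast markers in their decrease was not tested.

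HB-EGF is a membrane-bound ligand of EGFR that is freed by the sheddase ADAM17. *Hbegf* (reverse strand of chromosome 18, 36504927 to 36515805) was barely expressed, with 30, 26 and 36 reads in PP2A-KO and 39, 49 and 37 in WT, or 0.707, 0.788 and 0.863 against 0.785, 1.13 and 0.883 CPM. The groups overlapped. PP2A-KO minus WT came to -0.24 (log2, 95% interval -0.75 to 0.26, adjusted p = 0.436 from edgeR), so that a change within these bounds is not excluded.

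Of the 19 other EGF family genes, 13 could be tested, 2 were higher and 4 lower, beside 18.1% and 19.0% over all genes. *Adam17* rose by 0.42 on the log2 scale (SE 0.08, edgeR adjusted p = 0.00350), from 278 ± 23.6 to 371 ± 22.3 CPM. *Adam9*, a related metalloprotease, rose by 0.25 (adjusted p = 0.0158 from edgeR, 0.0755 without WT replicate 2, and 0.608 with library totals). The ligand *Ereg* had 9, 5 and 6 against 40, 20 and 18 reads, a log2 fold change of -1.73 (adjusted p = 0.00677 from edgeR). Like *Adam12*, it passed the filter on low counts through WT only, so these tests support nothing further. *Egfr* itself had 20 to 24 reads in PP2A-KO and 35 to 60 in WT, and fell by 0.91 (adjusted p = 0.0133 from edgeR). *Adam12* had a log2 fold change of -1.58, but its call was lost in 4 of the 6 fits without a library.

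M-CSF, the product of *Csf1* (reverse strand of chromosome 3, 107741048 to 107760469), is the survival factor of macrophages. *Csf1* had 6599, 4605 and 5269 reads in PP2A-KO and 4437, 2847 and 2266 in WT. Scaled, these were 156, 139 and 126 CPM against 89.3, 65.5 and 54.1 CPM. Both groups were uneven, but the lowest PP2A-KO library stood above the highest WT library. The change was 1.01 on the log2 scale (SE 0.16, edgeR adjusted p = 0.00127), and it ran from 0.86 without WT replicate 3 to 1.23 without WT replicate 1.

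The receptor gene *Csf1r* was high in every library, with 3301 to 3561 CPM in PP2A-KO and 2883 to 3215 CPM in WT. On the log2 scale the difference was 0.18 (adjusted p = 0.0976 from edgeR, but 0.00280 once replicate numbers were blocked), and it turned to -0.04 with library totals. Among related genes *Csf3r*, the G-CSF receptor, rose by 0.58 on the log2 scale (SE 0.06, edgeR adjusted p = 1.90e-04). The paralogs *Csf2rb* and *Csf2rb2* had nearly equal counts. The authors' counting may have split reads between them, which was not tested. *Il34*, the other ligand of the M-CSF receptor, did not pass the filter on low counts, with at most 4 reads in PP2A-KO libraries and 9 to 29 in WT.

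Gas6 is a vitamin K-dependent ligand of the TAM receptors, through which macrophages clear dying cells and damp inflammation. *Gas6* (chromosome 8, 13465374 to 13494490) had the highest level per kb of the 10 genes in both groups. It had 19034, 15388 and 17891 reads in PP2A-KO and 16631, 14724 and 13605 in WT, or 449, 466 and 429 against 335, 339 and 325 CPM. The groups were tight and well apart. PP2A-KO minus WT came to 0.43 (log2, SE 0.06, edgeR adjusted p = 9.17e-04), and 0.21 with library totals.

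*Axl*, a TAM receptor known to be induced by interferon and the one with the highest affinity for Gas6, rose. It had 34182, 25593 and 27250 reads in PP2A-KO and 13669, 10603 and 8147 in WT, a 3.13-fold difference and a log2 fold change of 1.65 (SE 0.13, edgeR adjusted p = 6.16e-05). *Mertk* had a log2 fold change of 0.27 (adjusted p = 0.0398 from edgeR), and the call was lost in 5 of the 6 fits without a library, with upper-quartile scaling and with library totals. *Tyro3* had 39 to 69 reads in PP2A-KO and 51 to 94 in WT (log2 fold change -0.15, adjusted p = 0.661 from edgeR). *Pros1*, which encodes the other TAM ligand, protein S, was lower, with a log2 fold change of -0.27 (adjusted p = 0.0263 from edgeR), and lost its call in 4 of the 6 fits without a library.

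**Figure D5:**
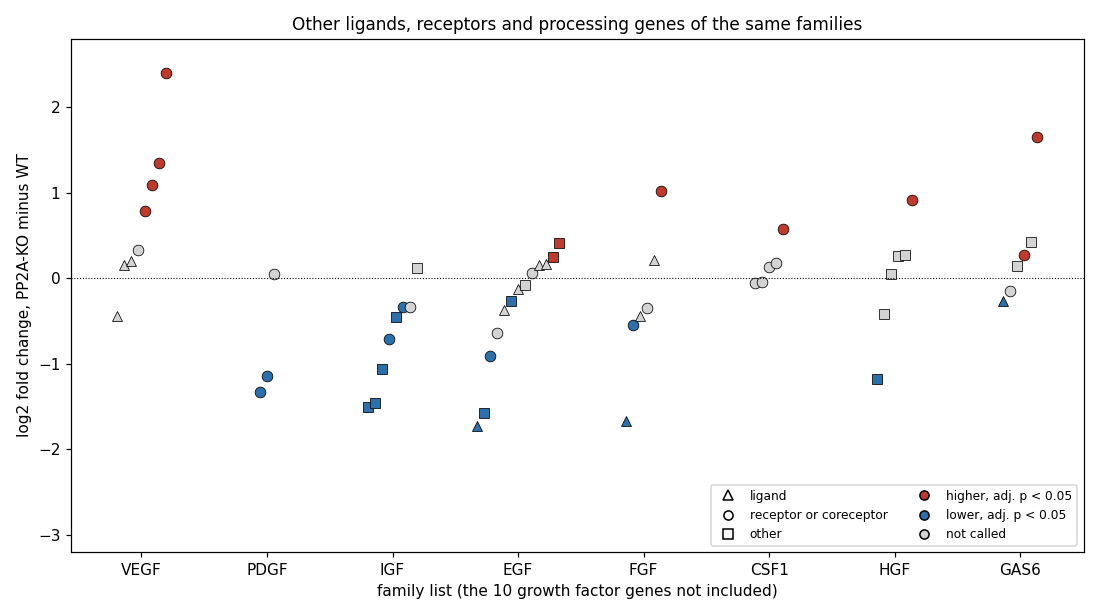
Log2 fold change (PP2A-KO minus WT, vertical axis) of the 55 other tested ligands, receptors and processing genes of the same families. Triangles are ligands, circles receptors or coreceptors, and squares other genes; red and blue mark higher and lower genes at an adjusted p under 0.05, and grey marks the rest. Of 8 genes tested in each list, the VEGF list has 4 higher, all receptors or coreceptors, and the IGF list 6 lower. Over all genes tested, 18.1% were higher and 19.0% lower. Of the lower IGF genes, *Igfbp6* passed the filter on low counts through WT only, and *Igfbp5* lost its call in some fits without a library.

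Across all 8 family lists, 84 genes beside the 10 growth factors were listed and 55 could be tested, of which 11 were higher and 16 lower in PP2A-KO. These are 49.1% of the genes tested, beside 37.1% of all genes. Of the 55, 5 passed the filter on low counts through WT only, 3 of them among the lower genes. With replicate numbers blocked, 16 were higher and 18 lower. The higher genes went from 4 to 6 in the VEGF list, from 0 to 1 in the IGF list and from 1 to 2 in the CSF1 and HGF lists. Calls also rose over all 13680 genes tested, to 3343 higher and 3615 lower from 2470 and 2604. Among the 26 tested receptors and coreceptors, 9 were higher and 6 lower, where 18.1% and 19.0% of all genes tested were. Among the 12 tested ligands, 0 were higher and 3 lower (*Ereg*, *Fgf7* and *Pros1*) with edgeR. *Ereg* passed the filter through WT only. The count of higher ligands was also 0 at an unadjusted p under 0.05, with DESeq2 and with limma-voom. With the block, *Vegfb* was higher. The 10 growth factors are ligands too but are left out of these counts. Of them, 5 were called higher and 2 lower, *Fgf2* with the limit given above.

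Promoter sequence from the RefSeq table (GRCm38.p6) is shown for 4 of the genes that changed, so that the letters near the start can be read beside the changes. These are the higher genes whose window held a match and, for contrast, *Hgf*, which was lower. The table held a window for 8 of the 10 genes. Each sequence is the 250 bases before the start, written 5′ to 3′ on the strand of the gene, with matches to the searched motifs in capitals. The motifs were searched on both strands: CATTCC (the TEAD core), the core of the interferon-stimulated response element, the NF-kB element, TGANTCA (AP-1) and ACGTG (the hypoxia response element core). They were chosen with the results known, and no matches in these windows overlapped. A match is a description and not a binding site.

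*Csf1* (higher; chr3:107760470-107760719, reverse strand), with an NF-kB match 154 bases before the start, and *Vegfa* (higher; chr17:46032378-46032627, reverse strand), with an interferon-stimulated response element match 142 bases before it:
Csf1: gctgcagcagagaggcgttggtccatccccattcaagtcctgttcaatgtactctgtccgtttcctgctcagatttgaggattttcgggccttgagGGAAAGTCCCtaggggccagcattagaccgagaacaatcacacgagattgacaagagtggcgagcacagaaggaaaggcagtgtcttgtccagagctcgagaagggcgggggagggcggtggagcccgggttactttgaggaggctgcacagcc
Vegfa: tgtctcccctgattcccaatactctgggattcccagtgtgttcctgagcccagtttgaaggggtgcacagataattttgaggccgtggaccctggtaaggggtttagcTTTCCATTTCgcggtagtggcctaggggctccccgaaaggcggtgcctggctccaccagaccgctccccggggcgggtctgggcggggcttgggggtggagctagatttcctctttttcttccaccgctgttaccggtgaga

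*Pdgfc* (higher; chr3:81036166-81036415, forward strand), with a TEAD core match 137 bases before the start, and *Hgf* (lower; chr5:16553245-16553494, forward strand), with no match:
Pdgfc: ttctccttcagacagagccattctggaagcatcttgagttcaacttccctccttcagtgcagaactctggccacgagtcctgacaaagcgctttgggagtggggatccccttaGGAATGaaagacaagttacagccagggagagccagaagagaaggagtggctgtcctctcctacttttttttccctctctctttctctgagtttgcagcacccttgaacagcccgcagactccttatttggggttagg
Hgf: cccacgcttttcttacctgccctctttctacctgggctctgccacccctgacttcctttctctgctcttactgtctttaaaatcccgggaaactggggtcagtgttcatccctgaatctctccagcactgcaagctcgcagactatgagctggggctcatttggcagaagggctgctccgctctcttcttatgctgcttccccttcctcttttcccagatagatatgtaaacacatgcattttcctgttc

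Over all 32851 windows of the same length in the table, 12.6% held the TEAD core, 2.98% the interferon-stimulated response element core, 0.356% the NF-kB letters, 6.75% the AP-1 letters and 16.6% the hypoxia response element core. The *Igf1* window held an AP-1 match, a further *Vegfa* window inside the gene held a hypoxia response element core, and those of *Pdgfa*, *Fgf2* and *Gas6* held no match to any of the 5 motifs.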

How the data were processed

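RNA from 3 PP2A-KO and 3 WT BMDM cultures was sequenced after poly(A) selection with a directional kit. The deposited values are raw read counts per gene, made by the authors. The submitters' processing notes name fastp 0.20.0, kallisto 0.46.1, STAR 2.7.1a, HTSeq 0.11.2, edgeR 3.34.0 and limma 3.48.3, and the strand setting used in counting is not given in the sources used here. Groups were taken from the labels.

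Counts were filtered with filterByExpr (minimum count 10, minimum total 15), scaled by TMM and tested with the quasi-likelihood test of edgeR 4.0.16 (R 4.3.3), with Benjamini-Hochberg adjustment over 13680 genes and a threshold of 0.05. CPM used TMM-scaled totals, levels per kb the union of GENCODE M21 exons (GRCm38), and errors are SD over 3 libraries. A count of 3 was worth 0.0604 to 0.0909 CPM. Within a group, libraries differed by more than sampling noise (chi-square per degree of freedom 9.28 to 45.5), so none was counted as the same library deposited again. Other settings were RLE, upper-quartile and unscaled totals, other filters, DESeq2 1.42.0, limma-voom 3.58.1, a replicate block, each library left out, and the longest transcript as length.

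Between PP2A-KO and WT libraries of the same replicate number, deviations from the group means correlated by 0.289, 0.148 and 0.337 for replicates 1, 2 and 3. Pairs of unlike number were not computed, so these values cannot show whether the numbers pair the libraries. No label says that they do. The main fit used genotype alone. With the replicate block, 3343 genes were higher and 3615 lower, instead of 2470 and 2604.

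The 10 genes, the family and cell type lists and the motifs were chosen with earlier results of these data known. Named family genes were up to 3 with the largest change in each direction per family, plus 13 receptors whatever their change. *Vegfb*, *Il34*, *Csf2rb* and *Csf2rb2* were named after their values were seen.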

Additional observations from a re-analysis of the deposited data

How the results depend on the processing

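Over 249 alternative values, 228 were labelled as kept. For a log2 fold change this meant the same direction and side of the threshold. For a level or a ratio it meant a move within the SD. Counts of genes had a looser rule, a limit on their ratio to the main count. By it, 3343 higher genes with the replicate block beside 2470 in the main fit still fell under kept. *Igf1* changed sign, to -0.026 (log2) with upper-quartile scaling, -0.18 with unscaled library totals and -0.0044 without WT replicate 2, where leaving out each library gave -0.0044 to 0.071. *Pdgfa* passed the threshold with library totals (-0.47, edgeR adjusted p = 0.0216), with no filter on low counts (-0.26, adjusted p = 0.0492) and with the replicate block (-0.24, adjusted p = 0.0306). The block changed no other call among the 10 genes. Library totals gave 1503 higher and 6125 lower genes, and 294 and 746 at the study's threshold. The cause was not tested. With the longest transcript as length, WT levels per kb were 81.6 for *Vegfa*, 9.57 for *Pdgfa*, 5.07 for *Pdgfb*, 0.517 for *Pdgfc*, 45.0 for *Igf1*, 0.322 for *Hbegf*, 16.7 for *Csf1* and 16.9 for *Hgf*, which puts *Hgf* above *Csf1*. The ratio of *Pdgfb* to *Pdgfa* was then 0.530 in WT, and that of *Hgf* to *Met* 9.79 in PP2A-KO and 27.2 in WT. The ratios and their alternatives were chosen after seeing the data. The filter for 10 counts in every library left *Fgf2* untested. Low counts limit *Fgf2* and *Hbegf* most.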

Other observations

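Markers of other cell types were low. Among megakaryocyte markers, 2 of 4 were tested and both were lower in PP2A-KO, beside 19.0% of all genes tested. Their summed level was at most 5.99 CPM against 6.92 to 8.94 in WT. Dendritic cell markers (3 of 5 tested, 1 higher, beside 18.1% of all genes tested) summed to 1.49 to 2.66 CPM in PP2A-KO and 0.954 to 1.71 in WT. Markers of B cells (1 of 4 tested) and of neutrophils (1 of 8 tested) held no called gene, and each list stayed at or under 1.56 CPM in every library.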
